A study of Homo sapiens with 4 samples.

Results

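The small RNA cargo of extracellular vesicles (EVs) from PC3 cells was described by miRNA class, with classes read from the miRNA names alone. All 2588 mature human miRNA names in the count table were members, and each was placed by its number (940 names below 1000, 1648 names from 1000) and by its arm (879 of the 5p arm, 888 of the 3p arm and 821 with no arm in the name). Names sharing a prefix and a number, such as all let-7 names, were also joined into 1502 family numbers. The counts came from 2 of the 4 libraries of the study, both small RNA libraries of PC3 EVs. The other 2 are total RNA libraries of the same kind of EV and were not used here.

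PC3 is an established line of prostate cancer cells, taken from a metastasis to bone. Cells were grown in DMEM with serum, and EVs were collected from medium with exosome-free serum, enriched for vesicles of a size thought to include exosomes by affinity and size exclusion columns, and extracted for RNA. Both libraries were TruSeq small RNA libraries of PC3 EVs, with no treatment in the labels, and are given as biological replicates, so they cover 1 cell line and 1 condition, and no comparison between treatments is possible. The columns of the table carry an identical heading, so they are named here by their order, as first and second library, and pairs of values are given in that order. The miRNA reads totalled 154185 and 113185, and a count of 0 allows a share of up to 3 reads, 0.00195% and 0.00265% of those totals. A name is called detected here with at least 1 read in either library.

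A mature miRNA is a short RNA cut from a hairpin precursor, and it guides Argonaute proteins to messenger RNAs, mainly through its seed, the stretch next to its 5′ end. The suffix 5p or 3p says which arm of the hairpin the sequence comes from, and as a rule 1 arm is kept and the other is degraded. Numbers were given in order of discovery, so low numbers hold early described miRNAs, among them conserved ones such as let-7, miR-21 and miR-100. High numbers hold miRNAs that were mostly found later by sequencing.

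Sequences of some leading names of each number class are shown first, from RefSeq on GRCh38.p14, in which 2281 of the 2588 names were matched. Seeds, bases 2 to 8 from the 5′ end, are in capitals. From the names numbered from 1000, the most abundant with a matched sequence are shown, together with miR-3976, which had the highest share in the second library relative to the first among names with at least 100 reads.
miR-3182: gCUUCUGUaguguaguc
miR-4448: gGCUCCUUggucuaggggua
miR-3135b: gGCUGGAGcgagugcaguggug
miR-1246: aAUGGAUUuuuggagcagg
miR-3976: uAUAGAGAgcaggaagauuaaugu
The most abundant of these, miR-3182, is also the shortest of the 5 with 17 bases, and its sequence lies at chr16:83508349-83508365 on the plus strand in an intron of CDH13. The sequence of miR-4448 lies at chr3:183886860-183886879 on the plus strand, in an intron of the transcribed pseudogene RPSAP31. No other annotated gene on the same strand covers miR-3135b (chr6:32749952-32749973, minus strand) or miR-1246 (chr2:176601024-176601042, minus strand). Whether reads counted on names from 1000 came from miRNA hairpins or from other RNAs of similar sequence was not tested.

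From the names numbered below 1000, the leading let-7 members and the miR-100 group are shown because they share a seed within each group. The others were among the leading names of the class or among those that differed most between the libraries. Not every leading name is shown.
let-7a-5p: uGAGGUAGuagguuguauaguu
let-7f-5p: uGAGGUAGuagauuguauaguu
let-7b-5p: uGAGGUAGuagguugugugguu
let-7i-5p: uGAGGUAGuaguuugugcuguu
let-7g-5p: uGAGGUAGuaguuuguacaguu
let-7d-5p: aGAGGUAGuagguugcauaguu
miR-100-5p: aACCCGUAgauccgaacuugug
miR-99a-5p: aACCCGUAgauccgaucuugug
miR-99b-5p: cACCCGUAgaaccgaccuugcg
miR-21-5p: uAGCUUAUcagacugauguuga
miR-182-5p: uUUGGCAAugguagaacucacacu
miR-92a-3p: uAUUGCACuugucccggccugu
miR-191-5p: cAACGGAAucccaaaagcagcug
miR-23a-3p: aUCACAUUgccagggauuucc
miR-221-3p: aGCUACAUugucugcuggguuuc
Counting positions from 1 at the 5′ end, let-7f-5p differed from let-7a-5p by G12A alone, let-7g-5p by G12U and U18C, and miR-99a-5p differed from miR-100-5p by A16U alone. How reads that fit several of these names were counted is not given in the sources used here, so the split between such close names is uncertain. The locus of miR-21-5p is chr17:59841273-59841294 on the plus strand, in an exon of VMP1. That of miR-100-5p is chr11:122152275-122152296 on the minus strand, in an intron of the long non-coding RNA gene MIR100HG, which also holds 1 of the 3 let-7a loci.

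Most miRNA counts fell on names numbered from 1000 that have no arm in the name. Names from 1000 took 65.8% of the counts of the first library (95% Wilson interval 65.6 to 66.0%) and 72.2% of those of the second (71.9 to 72.5%), on average 69.0% ± 4.53 (SD, n = 2). Names below 1000 took the rest, 34.2% and 27.8%. Intervals cover counting error only and treat reads as independent. Amplified reads are not independent molecules, so the intervals may be too narrow. The libraries differed by more than their intervals. Shares add up to the whole within a library, so a lower share of 1 class and a higher share of the other cannot be told apart.

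By arm, 5p names took 26.5% (26.2 to 26.7%) and 21.7% (21.5 to 22.0%) of the counts. The 3p names took 7.25% (7.13 to 7.38%) and 5.59% (5.46 to 5.73%), and names with no arm 66.3% (66.1 to 66.5%) and 72.7% (72.4 to 72.9%). Both arms therefore had the lower share in the second library. The number and the arm overlapped almost completely in where the counts lay. From 1000 there are 507 5p names and 509 3p names in the table, yet the former held 0.279% and 0.283% of the counts and the latter 0.458% and 0.415%. Conversely, names below 1000 without an arm held 1.23% and 1.15%.

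Leaving out miR-3182 and miR-4448 turned the order of the classes around. Together they held 50.5% and 57.2% of the counts, and 76365 and 48390 reads were left without them. Of these, names from 1000 took 30.9% (30.6 to 31.3%) and 35.0% (34.6 to 35.4%), on average 33.0% ± 2.86 (SD, n = 2), and names below 1000 took 69.1% and 65.0%. The 5p names became the largest arm class, with 53.4% and 50.9%, followed by names with no arm with 31.9% and 36.0% and 3p names with 14.6% and 13.1%. Names below 1000 had the lower share in the second library with and without miR-3182 and miR-4448.

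**Figure D1:**
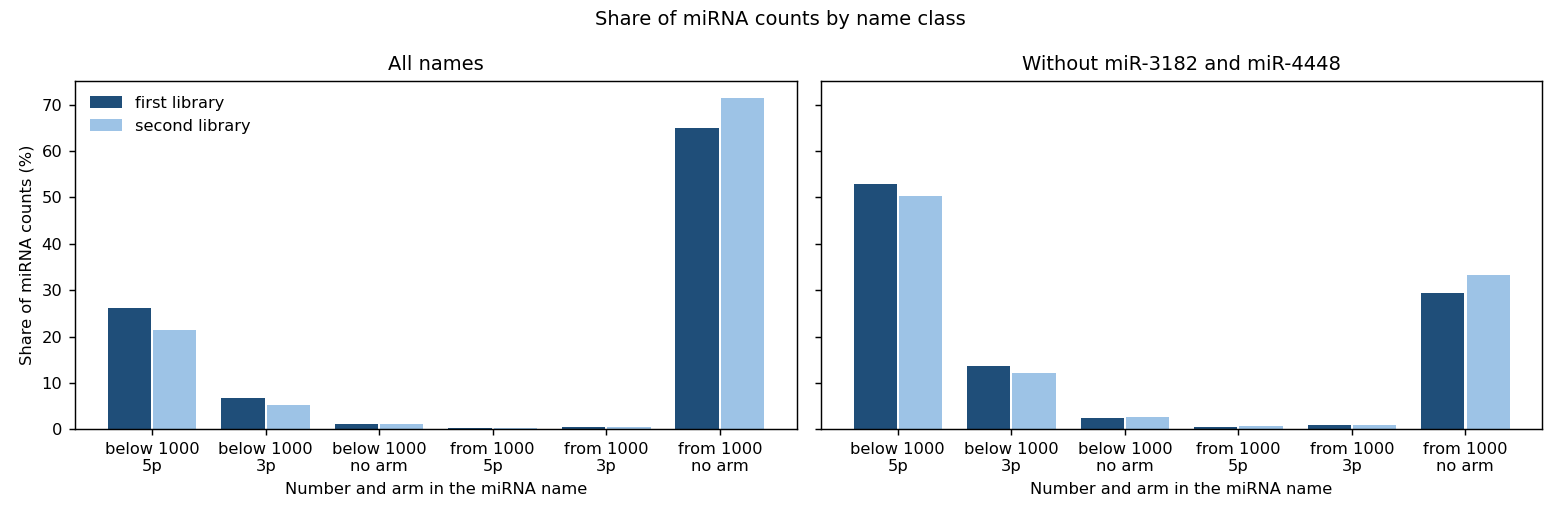
Share of the miRNA counts (%, y axis) on each class of names (x axis, number and arm in the name) in the first and the second library, for all names (left) and with miR-3182 and miR-4448 left out (right); each bar is 1 library. With all names the bars of names from 1000 without an arm stand at 65.1% and 71.5%, and without those names the 5p names below 1000 are highest at 52.9% and 50.2%.

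Within the classes, the counts were spread very differently. In both libraries 4 names made up 90% of the counts of the class from 1000, whereas below 1000 it took 31 and 26 names. Without miR-3182 and miR-4448 the class from 1000 needed 11 names in each library. The 5p names needed 15 and 14 names, and the 3p names 25 and 26.

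The class from 1000 was led by names without an arm. miR-3182 had 46734 and 32104 reads, and its share was the higher in the first library by 1.07-fold. miR-4448 had 31086 and 32691 reads, which is 1.43-fold more of the counts in the second library. Of these leading names, miR-4448 was the only one with more reads in the second library although that library was the smaller. After them came miR-7641 with 8309 and 4968 reads, miR-3135b with 6751 and 4855 reads, and miR-1246 with 4035 and 3599 reads. The shares of miR-3135b, 4.38% and 4.29%, lay closest together of these 5 names on all counts, while miR-1246 had 2.62% and 3.18%. Without miR-3182 and miR-4448, miR-3135b took 8.84% and 10.0% and miR-7641 10.9% and 10.3%, so miR-3135b then had the higher share in the second library and miR-7641 was the closer.

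Names from 1000 with an arm were led by a much lower level. The highest 3p name was miR-1273g-3p with 326 and 188 reads, followed by miR-4797-3p with 123 and 106, miR-4485-3p with 36 and 18, miR-7110-3p with 24 and 13 and miR-1307-3p with 18 and 14. The highest 5p name was miR-4797-5p with 124 and 109 reads, followed by miR-6883-5p with 95 and 85, miR-6724-5p with 53 and 25, miR-1285-5p with 20 and 10 and miR-4485-5p with 18 and 4. Both arms of miR-4797 thus stood at nearly the same count in each library.

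Below 1000, the 5p names were led by conserved miRNAs with known roles in cancer. miR-100-5p, a miRNA also encoded beside let-7a-2 and miR-125b-1, had 9909 and 5405 reads, or 6.43% and 4.78% of the counts. miR-21-5p, which is raised in many tumours, had 5831 and 3031 reads, or 3.78% and 2.68%. Both had the higher share in the first library, by 1.35-fold and 1.41-fold. miR-182-5p and the leading let-7 names did not follow them. let-7a-5p had 4661 and 3652 reads (3.02% and 3.23%), let-7f-5p 3145 and 2480 (2.04% and 2.19%), and miR-182-5p 2235 and 1680 (1.45% and 1.48%), so each had the slightly higher share in the second library. miR-183-5p, from the same cluster as miR-182, had 956 and 701 reads, 0.620% and 0.619% of the counts.

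Further 5p names among the 20 most abundant were miR-30d-5p with 1804 and 1102 reads and miR-191-5p with 1984 and 809. miR-191-5p differed most between the libraries of all 20, by 1.80-fold (1.29% and 0.715%). The 3p names below 1000 were led by miR-151a-3p with 1466 and 1297 reads and miR-92a-3p with 1782 and 920. After them came miR-378a-3p with 1570 and 1005, miR-23a-3p with 1044 and 389 and miR-24-3p with 597 and 291. Of these 5 names, miR-151a-3p alone had the higher share in the second library (0.951% and 1.15%). The sequence of miR-92a-3p has 2 loci, 1 of them in the miR-17-92 cluster. miR-23a-3p and miR-24-3p were 1.97-fold and 1.51-fold higher in the first library. Names below 1000 with no arm were led by miR-320a with 1402 and 988 reads, followed by miR-658 with 231 and 166, miR-941 with 46 and 28, miR-421 with 45 and 15 and miR-320b with 28 and 18. The first of these held 73.8% and 75.8% of its class. Small differences between the libraries depended on the scale: miR-183-5p had 1.25% and 1.45% without miR-3182 and miR-4448, and miR-320a 1.84% and 2.04%, while miR-191-5p kept its direction with 2.60% and 1.67%.

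**Figure D2:**
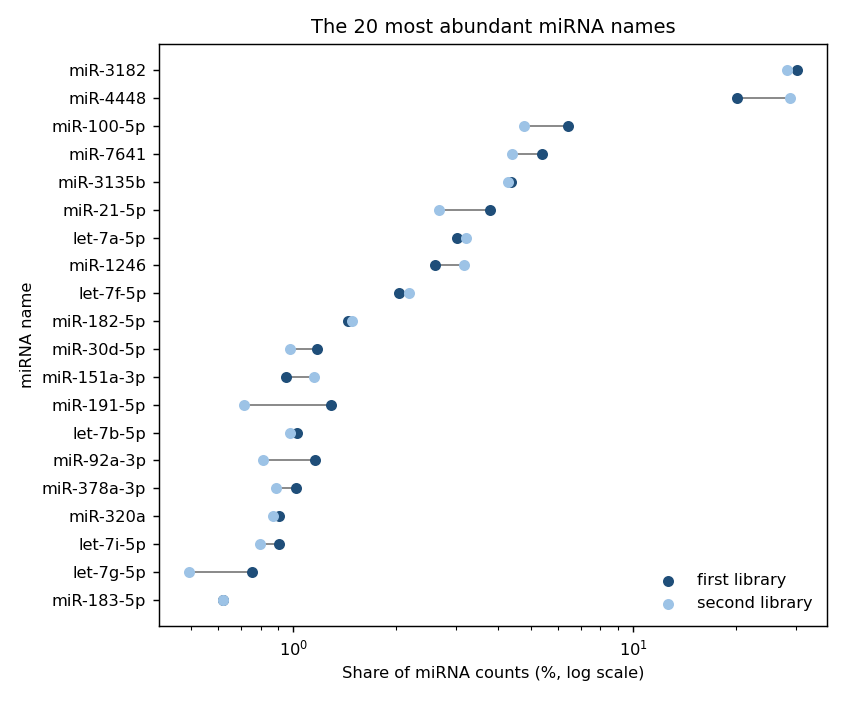
Share of the miRNA counts (%, log scale, x axis) of the 20 names with the highest mean share (y axis), with 1 point for each library joined by a line. These names took 89.4% and 91.8% of the counts, 15 of them are numbered below 1000, and the points of miR-191-5p and miR-4448 lie visibly apart whereas those of miR-183-5p and miR-3135b nearly coincide on this scale of all counts.

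Grouped by family number, let-7 led the families of 2 or more names. Its 18 names in the table took 12558 and 9021 reads, 8.14% and 7.97% of the counts, on average 8.06% ± 0.123 (SD, n = 2), and 12 of the names had reads in both libraries. let-7 miRNAs are known to repress growth genes such as RAS and HMGA2. Without miR-3182 and miR-4448 the family took 16.4% and 18.6%, on average 17.5% ± 1.55 (SD, n = 2), so the library with the higher share changed from the first to the second. Besides let-7a-5p and let-7f-5p, let-7b-5p had 1575 and 1103 reads, let-7i-5p 1395 and 902, let-7g-5p 1162 and 559 and let-7d-5p 413 and 186. let-7g-5p was therefore 1.53-fold and let-7d-5p 1.63-fold higher in the first library. Lower down, let-7e-5p had 93 and 62 reads and let-7c-5p 65 and 49, and the 3p names let-7d-3p (28 and 17), let-7a-3p (10 and 6), let-7b-3p (10 and 4) and let-7f-1-3p (1 and 1) had at most 28 reads in a library. Joined by seed, GAGGUAG was carried by 11 matched names, 9 of them detected (the let-7 5p names and miR-98-5p), and together they took 8.16% and 7.98% of the counts.

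The other leading families rested mostly on 1 member. In the miR-100 family, miR-100-5p held 99.9% and 99.6% of the family's reads and miR-100-3p had 11 and 19. In the miR-21 family, miR-21-3p had 14 and 20 reads, and in the miR-182 family miR-182-3p had 3 and 5. These minor 3p arms had more reads in the second library, whereas their major 5p arms had more in the first. miR-3135a had 1 and 0 reads, and miR-151a-5p and miR-151b had 2 and 1 each. miR-92b-3p had 59 and 25 reads, miR-92b-5p 6 and 6 and miR-92a-1-5p 0 and 2. In the miR-30 family, which took 1.37% and 1.09% of the counts, miR-30d-5p held 85.5% and 89.6%. Its other members were miR-30c-5p with 169 and 64 reads, miR-30a-5p with 68 and 37, miR-30e-5p with 35 and 10, miR-30e-3p with 22 and 15 and miR-30b-5p with 9 and 1. The remaining miR-30 names with a read (miR-30b-3p, miR-30a-3p, miR-30c-1-3p and miR-30d-3p) had at most 1 in a library. The seed ACCCGUA joined miR-100-5p to miR-99a-5p (136 and 65 reads) and miR-99b-5p (485 and 302), and these names took 6.83% and 5.10% of the counts.

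Identified names were those with a read in each library, which 386 of the 2588 names had (14.9%). With at least 3 reads in both, 140 names below 1000 and 77 from 1000 were left. Below 1000, 217 of 940 names were identified (23.1%), and from 1000, 169 of 1648 (10.3%). The 5p names had 138 identified (15.7%), the 3p names 116 (13.1%) and the names without an arm 132 (16.1%). Number and arm together separated the classes further. Below 1000, 108 of 372 5p names (29.0%) and 84 of 379 3p names (22.2%) were identified, whereas from 1000 it was 30 of 507 (5.92%) and 32 of 509 (6.29%). Among names without an arm the order was the opposite, 25 of 189 (13.2%) below 1000 and 107 of 632 (16.9%) from 1000.

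Names seen in 1 library alone were nearly all at the lowest counts. Below 1000 there were 161 of them, 111 with a single read and none with more than 5. From 1000 there were 218, 182 with a single read and none with more than 7. Where a name had a single read, its absence from the other library is not a detectable difference at this depth.

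**Figure D3:**
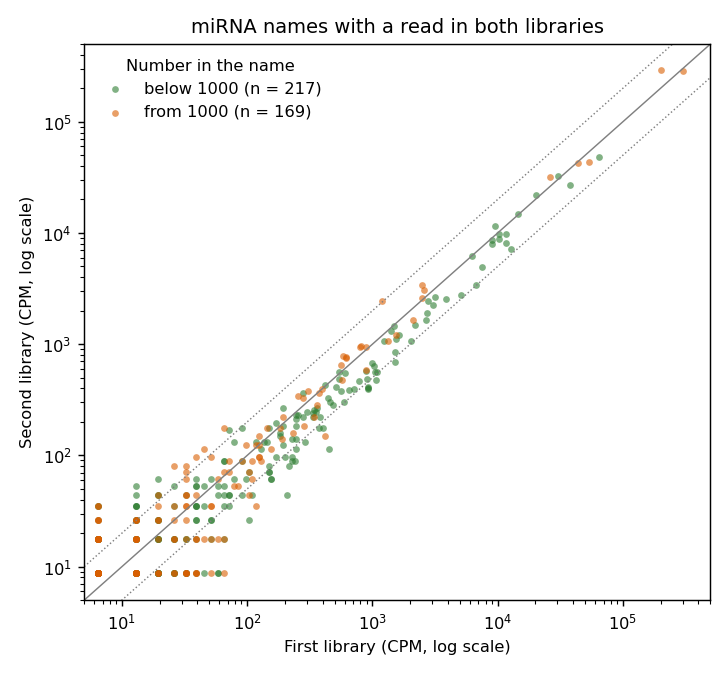
Level in the first library (x axis) against the second (y axis), both in CPM, reads scaled to a common library total, on log scales, for the 386 names with a read in both, coloured by class (217 below 1000, 169 from 1000); the solid line marks equal CPM and the dotted lines 2-fold differences. At middle levels most points below 1000 lie under the solid line, towards the first library, whereas those from 1000 lie on both sides of it.

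Agreement between the libraries was described for the 208 names with at least 10 reads summed, 136 below 1000 and 72 from 1000. The Spearman correlation of the levels was 0.952 across the names below 1000 and 0.907 across those from 1000, and by arm 0.953 for 5p, 0.933 for 3p and 0.919 for no arm. These are correlations across names of the same 2 libraries, and the names are not independent replicates. Of the 208 names, 42 differed over 2-fold (20.2%). By class it was 28 of 136 below 1000 (20.6%) and 14 of 72 from 1000 (19.4%), both near the share of all names. Under other settings the classes parted in opposite directions. On totals without miR-3182 and miR-4448 it was 17 of 136 (12.5%) and 15 of 72 (20.8%). Over the 206 names other than those it was 32. Among names with at least 30 reads it was 21 of 100 (21.0%) and only 3 of 43 (6.98%). No difference between the classes is drawn from these shares.

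The direction of the differences was not equal. Of the 28 names below 1000, 26 were higher in the first library and the other 2 in the second, whereas the 14 names from 1000 were 7 and 7. On totals without miR-3182 and miR-4448 the numbers were 13 and 4 below 1000 and 6 and 9 from 1000, so fewer names below 1000 were over 2-fold apart on that scale. Over all 208 names on all counts, 33 (15.9%) were over 2-fold higher in the first library and 9 (4.33%) were over 2-fold higher in the second. Counting any difference, 147 of the 208 names had the higher share in the first library (70.7%). This was so for 112 of 136 names below 1000 (82.4%) and 35 of 72 from 1000 (48.6%). By arm it was 60 of 79 5p names (75.9%), 56 of 67 3p names (83.6%) and 31 of 62 names without an arm (50.0%).

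The median log2 ratio of the first over the second library was 0.32 across all 208 names. It was 0.49 below 1000, a 1.41-fold higher level in the first library, and −0.01 from 1000, a gap of 0.51 on the log2 scale. Scaling moves both medians alike and leaves the gap as it is. On totals without miR-3182 and miR-4448 the median of all names fell by 0.21 and the class medians were 0.28 and −0.23, and with TMM factors from edgeR it fell by 0.17 and they were 0.32 and −0.19. On totals without those names, 90 of 136 names below 1000 (66.2%) and 29 of 72 from 1000 (40.3%) had the higher level in the first library, against 57.2% of all names. By arm it was then 49 of 79 5p names (62.0%), 47 of 67 3p names (70.1%) and 23 of 62 names without an arm (37.1%). The direction of the median from 1000 was thus below 0 under all 3 scalings, near 0 under the first.

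The lower ratio from 1000 lay mainly in names with no arm. Among names from 1000 without an arm the median log2 ratio was −0.10 (22 of 52 higher in the first library), and among those of the 5p and 3p arms it was 0.47 (5 of 7) and 0.32 (8 of 13). Below 1000 the medians were 0.49 (55 of 72), 0.52 (48 of 54) and, without an arm, 0.22 (9 of 10). Over the names with an arm alone the gap between the number classes was 0.19, so the arm moved with the number and their parts in it were not tested separately. The gap was also present at each depth. Among names with at least 100 reads the medians were 0.52 below 1000 and −0.17 from 1000, with 30 to under 100 reads 0.52 and 0.05, and with 10 to under 30 reads 0.29 and −0.01.

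**Figure D4:**
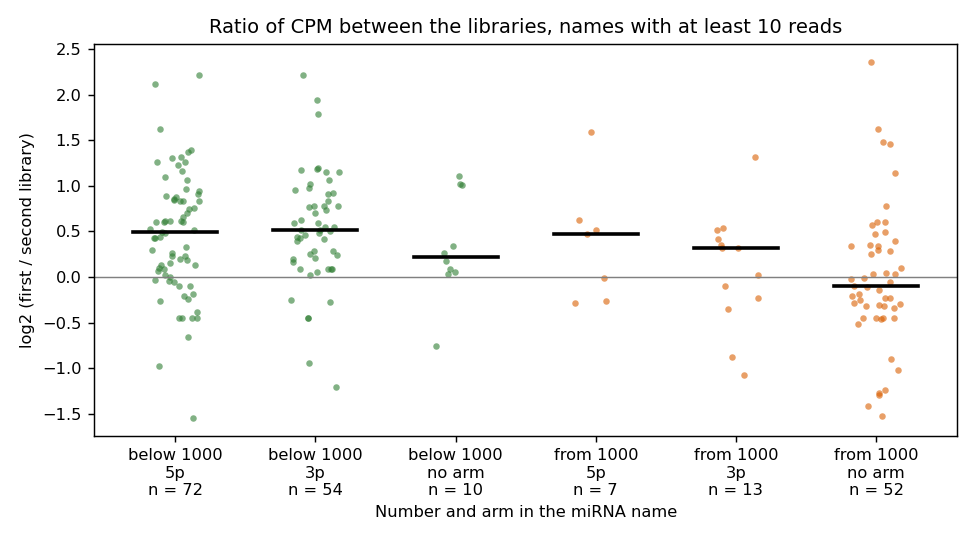
Log2 ratio of CPM in the first over the second library (y axis) for each of the 208 names with at least 10 reads summed, by number and arm (x axis); each point is 1 name and the bar is the median of the class. Medians lie at 0.49, 0.52 and 0.22 below 1000 and at 0.47, 0.32 and −0.10 from 1000, and every class holds names on both sides of 0.

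At the ends of this range stood names of different classes. Among the 77 names with at least 100 reads, the 5 highest in the first library were all numbered below 1000. They were miR-221-3p, a repressor of the cell cycle inhibitor p27, with 142 and 45 reads (2.30-fold), miR-23b-3p with 143 and 46 (2.27-fold), miR-29a-3p, known to target collagen genes, with 165 and 54 (2.23-fold), miR-27b-3p with 143 and 47 (2.22-fold) and miR-17-5p with 232 and 79 (2.15-fold). Of these, miR-23b and miR-27b are encoded in 1 cluster. The 5 at the other end were all numbered from 1000 with no arm, namely miR-3976 with 185 and 275 reads, miR-4448, miR-4419a with 386 and 389, miR-5096 with 89 and 89 and miR-6131 with 94 and 87. Only miR-3976 was over 2-fold higher in the second library. Of the 77 names, 20 had the higher share in the second library, 6 of 55 below 1000 and 14 of 22 from 1000.

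The counts were set against counting noise to see whether the same library had been deposited under both columns. Over the 208 names the chi-square for equal shares was 21.7 per degree of freedom, and it was 8.42 without miR-3182 and miR-4448, so the columns are not repeats of the same counts within sampling noise. Whether they come from separate EV preparations rests on the study's statement alone. By class it was 14.1 below 1000 and 36.3 from 1000. For the same fold difference the chi-square grows with the reads of a name, so these values do not rank the classes by agreement. Within the totals of each class it was 8.18 below 1000 and 30.4 from 1000, and 5.92 from 1000 without miR-3182 and miR-4448. The spread between the libraries beyond counting noise, as the biological coefficient of variation (BCV) from edgeR, was 30.1% below 1000 and 18.1% from 1000 on all counts. Scaled to the total of each class it was 20.1% and 18.6%. The 5p and 3p names likewise stood at 28.3% and 30.2% on all counts and at 19.3% and 19.5% on their own totals. Scaling by the total of the class thus lowered the BCV of names below 1000 to near that of names from 1000. Each BCV rests on 2 libraries.

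The classes also differed in the sequences their names stand for. Of the 765 names with a read in either library, 652 had a matched sequence, 326 of 378 below 1000 and 326 of 387 from 1000. The median G and C content was 47.8% below 1000 and 59.1% from 1000. Mature sequences of 20 to 24 bases were 97.5% of the names below 1000 and 81.0% of those from 1000, and sequences under 20 bases 1.84% and 16.6%. Across the matched names in the whole table, detected or not, the median G and C content was 47.6% and 55.0% and sequences under 20 bases were 3.03% and 12.6%, so the classes differ in the same direction before any read is counted. A U at the first base, the base Argonaute is known to favour, was about as frequent in both classes of detected names, at 39.3% and 37.4%. Across the matched names in the whole table it was less frequent below 1000 than from 1000, at 32.6% and 39.1%.

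Weighted by reads, the difference at the first base was wide. Below 1000, 59.5% and 63.7% of the reads belonged to names whose sequence starts with U. From 1000 it was 1.46% in both libraries, and without miR-3182 and miR-4448 it was 9.76% and 10.4%. That last value covers only 58.1% and 62.9% of the reads of its class, since the rest lay on names without a matched sequence. Most of the matched reads left lay on miR-3135b, which starts with G, and miR-1246, which starts with A. The mean length weighted by reads was 22.2 bases in both libraries below 1000, and 18.6 and 18.8 bases from 1000. Without miR-3182, of 17 bases, and miR-4448 it was 20.7 bases in both libraries from 1000, over the same part of the reads. Among 120 names below 1000 with at least 10 reads and a matched sequence, the log2 ratio between the libraries had a Spearman correlation of −0.05 with G and C content and 0.01 with length. The same check was void from 1000, where 47 of 72 names (65.3%) were matched.

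**Figure D5:**
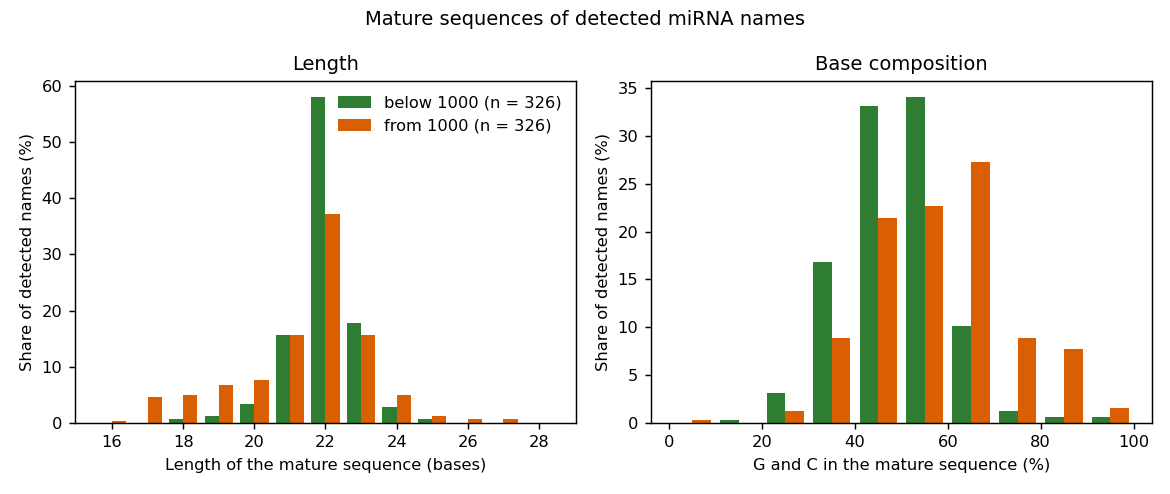
Length in bases (left) and G and C content in % (right) of the mature sequences of detected names, as the share of the 326 matched names of each class (y axis, %). Names from 1000 (orange) reach to shorter lengths and higher G and C content than names below 1000 (green), with medians of 59.1% and 47.8% G and C.

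As a check of the label, miRNAs known to mark cell types were read in both libraries. Markers of epithelial cells were few. Of 7 names, 2 had a read, miR-200c-3p with 11 and 4 and miR-141-3p with 0 and 1, while miR-200a-3p, miR-200b-3p, miR-429, miR-205-5p and miR-203a-3p were at 0. Among erythrocyte and platelet markers, 1 of 5 had reads, miR-486-5p with 6 and 7, and miR-451a was at 0. Leukocyte markers had 9 and 2 reads in all, with miR-155-5p at 4 and 1, miR-146a-5p at 5 and 0 and miR-150-5p at 0 and 1. Stroma and endothelium markers had 8 and 4 reads, from miR-126-3p (6 and 3), miR-143-3p (1 and 1) and miR-214-3p (1 and 0), and muscle markers had a single read, of miR-1-3p in the first library. Liver miR-122-5p had 39 and 26 reads. Names listed as neuronal had 363 and 181 reads, from miR-128-3p (252 and 136), miR-9-5p (110 and 45) and miR-124-3p (1 and 0). Of the 5 listed names 4 were matched in the table, with miR-129-5p at 0, and miR-137-3p was not found under that name. Of these lists the neuronal one was the most abundant, through miR-128-3p and miR-9-5p, while miR-124-3p, its most specific member, was at 1 read. The part of RNA from other sources in the counts was not tested.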

How the data were processed

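Small RNA of EVs from PC3 cells was sequenced as 2 libraries. Trimming with Cutadapt and mapping with SHRiMP (GRCh38, miRBase names) were done by the authors, who deposited unnormalised counts of reads for each mature miRNA. Versions and the handling of reads that fit several names are not given in the sources used here. The deposited total RNA counts were not used here.

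Names were split at number 1000 and by arm. The log2 ratio of CPM used 0.5 added reads. Ratios, correlations and BCV used names with at least 10 reads summed. Errors are 95% Wilson intervals for a library and the SD of 2 libraries. With 1 condition no test between groups applies, and the chi-square against counting noise checked for a repeated library. TMM factors and BCV came from edgeR 4.0.16 (R 4.3.3), and other values from Python 3.11.15, numpy 2.4.6, pandas 2.3.3, scipy 1.17.1 and matplotlib 3.10.9. Scripts were tested on simulated data. Mature sequences were matched by name to RefSeq (GRCh38.p14), and gene contexts came from GENCODE.

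The miRNAs named are the 20 with the highest mean share, the 5 highest of each class, the detected members of the 8 leading families of 2 or more names, the 5 highest and 5 lowest ratios among names with at least 100 reads, and marker lists. Classes, lists and rules were chosen with earlier results of these data known. Alternatives were other minimum counts and folds, other scalings, leaving out miR-3182, miR-4448 or both, and each library alone.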

Additional observations from a re-analysis of the deposited data

How the results depend on the processing

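The order of the classes turned when miR-3182 and miR-4448 were left out together, as did the order of the libraries for some names and for let-7. Leaving out miR-3182, miR-4448 or both gave a mean share of 56.1%, 59.0% and 33.0% for names from 1000, 34.2%, 31.9% and 52.1% for 5p names, 9.11%, 8.47% and 13.9% for 3p names and 56.7%, 59.7% and 34.0% for names with no arm. Identified names below 1000 numbered 140 with 3 reads in both libraries, 97 with 10 reads and 378 with a read in either, and those from 1000 numbered 77, 47 and 387, or 255 to 301 in either library alone. The share of names over 2-fold apart, below and from 1000, was 12.5% and 20.8% on totals without miR-3182 and miR-4448. With TMM it was 20 of 136 (14.7%) and 15 of 72 (20.8%), and with 30 reads summed 21 of 100 (21.0%) and 3 of 43 (6.98%). Over 1.5-fold apart were 66 of 136 (48.5%) and 20 of 72 (27.8%), and over 3-fold apart 6 of 136 (4.41%) and 3 of 72 (4.17%). The class with the larger share changed with the setting, so no difference between the classes is drawn from these shares. The Spearman correlation over names with a read in either library was 0.736 below 1000 and 0.428 from 1000, where single reads dominate. Alternatives chosen after seeing the data gave a gap between the class medians of 0.54 at 30 reads, 0.68 at 100 reads and 0.19 over names with an arm, and a chi-square of 8.42 per degree of freedom, in place of 21.7, without miR-3182 and miR-4448. No paired analysis was possible because the libraries cover 1 condition and their columns carry no replicate number. The total counts limit what can be said of names under about 10 reads.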

Other observations

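The balance of the arms within a hairpin was described for the 110 hairpins with both arms named and at least 10 reads summed, 96 numbered below 1000 and 14 from 1000. The same arm was the major one in both libraries in 106 of them, and the exceptions all had under 100 reads. Only miR-30e changed its major arm. Its 3p and 5p arms had 22 and 35 reads in the first library and 15 and 10 in the second. In miR-15b (1 and 1 reads), miR-30b (1 and 1) and miR-335 (2 and 2) the arms were tied in the second library. The 5p arm was the major one in 64 hairpins and the 3p arm in 46, and from 1000 it was 4 and 10. The minor arm held a median of 0.807% of a hairpin's reads, under 5% in 78 hairpins and over 25% in 13.

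The most balanced hairpin was miR-4797, with 123 reads on the 3p and 124 on the 5p arm in the first library and 106 and 109 in the second. Whether the same reads were counted under both names of miR-4797 is not known from the sources used here. In miR-423, the most abundant of the balanced hairpins, the 3p arm had 339 and 170 reads and the 5p arm 432 and 277. Further from 1000, the names of miR-1273 had reads in 7 of 9 cases, led by miR-1273g-3p, and the family took 551 and 372 reads, or 0.357% and 0.329% of the counts.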
